A study of Homo sapiens with 12 samples.

Results

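The genes described here encode plasma proteins that are normally made by the liver: the fibrinogen chains FGA, FGB and FGG, the fibrinogen-like protein FGL1, and the inter-alpha-trypsin inhibitor heavy chains ITIH2 and ITIH3. They are 6 of the 58735 genes in the count table. They were chosen by name as liver-type secreted proteins, and the list was drawn up because it held some of the genes that GFI1 lowered most in these libraries. The differences between GFI1 and control cells are therefore given as a description, without p values. RNA-Seq was performed on A549, an established human lung adenocarcinoma line, in 4 groups of 3 libraries. Attached control and attached GFI1 cells grew on the dish, and floating control and floating GFI1 cells had been held in suspension for 48 hours. All groups were kept in RPMI1640 with fetal bovine serum. GFI1, a zinc finger repressor of the hematopoietic lineage, was overexpressed from a lentiviral vector with a PGK promoter and a GFP marker, and GFP-positive cells were sorted. For these libraries the labels say only control, while the methods describe empty-vector A549 cells for other assays. The sources used here do not say whether replicates came from separate cultures, so the p values measure the spread between these libraries.

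Fibrinogen is a hexamer that holds a pair of each of its alpha, beta and gamma chains, encoded by FGA, FGB and FGG. Thrombin cleaves it to fibrin, the fabric of a clot, and plasmin degrades the fibrin again. The genes lie side by side, and hepatocytes express them together under liver-enriched factors such as the C/EBP proteins, and, in the acute-phase response, under IL-6 acting through STAT3 with help from glucocorticoids. FGL1 carries the same fibrinogen-related domain but forms no clot, and it is a ligand of the T cell inhibitory receptor LAG3. The heavy chains of the inter-alpha-trypsin inhibitor family are joined to bikunin, the product of AMBP, and are transferred to hyaluronan by the enzyme TNFAIP6, which stabilizes the matrix around cells.

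Of the 6 genes, 4 had a RefSeq promoter window in the table used, which spans 250 bases before to 50 bases after the start (GRCh38.p14). The 250 bases before the start are shown for FGA (chr4:154590743-154590992, minus strand) and FGB (chr4:154562761-154563010, plus strand, the later of 2 RefSeq starts). These genes are adjacent in the fibrinogen cluster. Capitals mark letters that match any of 4 searched motifs on either strand. The core that GFI1 binds was searched as AATC. A longer form of the GFI1 site was searched as AAATCAC. The letters for the C/EBP proteins were TTGCNNAA, and those for the type II response element of IL-6 were CTGGGAA.
FGA: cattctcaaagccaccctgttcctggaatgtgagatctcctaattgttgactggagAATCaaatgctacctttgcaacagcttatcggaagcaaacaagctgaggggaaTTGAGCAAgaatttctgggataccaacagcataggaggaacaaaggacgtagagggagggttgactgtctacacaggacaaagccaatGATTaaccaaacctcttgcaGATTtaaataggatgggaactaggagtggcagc
FGB: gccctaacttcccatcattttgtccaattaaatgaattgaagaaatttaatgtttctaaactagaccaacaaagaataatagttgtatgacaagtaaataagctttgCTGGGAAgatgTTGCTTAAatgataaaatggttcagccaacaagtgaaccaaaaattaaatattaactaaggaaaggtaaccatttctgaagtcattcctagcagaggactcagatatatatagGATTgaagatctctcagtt
In FGA the capitals are, from left to right, a GFI1 core, a C/EBP match and a further pair of GFI1 cores on the other strand. In FGB they are the IL-6 element, a C/EBP match and a GFI1 core close to the start. Over the full windows, the GFI1 core matched 4 times in FGA, 1 time in FGB and 1 time in FGG, and 0 times in ITIH3. A match of this core was common, since it was present in 69% of 35114 promoter windows and at least 2 times in 40.2%. The longer GFI1 form matched in 3.14% of all windows and in no window of the 4 genes. The C/EBP letters stood in 10.5% of all windows and in those of FGA and FGB. The IL-6 element was found in 10.8% of all windows and in those of FGB and FGG, and in FGG its first base is the last base of the GFI1 core. The FGG window (chr4:154612607-154612906, minus strand) lies wholly inside the longer gene model of the count table and is not printed. Of the printed stretches of FGA and FGB, only the end nearest the start lies inside the gene model. FGL1 and ITIH2 had no entry. A match is a run of letters only, and no binding was measured.

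The libraries held between 17014188 and 20748677 counts. GFI1 itself had 4 to 12 counts in each control library and 5154 to 12796 in each GFI1 library. Its level was 285 to 294 CPM (counts relative to library size, scaled by the trimmed mean of M values) in attached and 430 to 704 CPM in floating GFI1 cells. The epithelial keratins KRT7, KRT8 and KRT18 had at least 8281 counts in every library. The other markers of this list were lower, with 6 to 45 counts for EPCAM, 13 to 89 for KRT19 and 66 to 2186 for CDH1. The summed CPM of the 6 epithelial markers ran from 10400 to 11000 in attached control and 4220 to 4330 in attached GFI1 cells. It ran from 6520 to 6930 in floating control and 3030 to 3410 in floating GFI1 cells. Of 8 hepatocyte markers, 4 passed the count filter. APOA2 and TTR had at most 2 counts in any library, and ALB, the albumin gene, had at most 48. The summed CPM of these 8 markers was 1.25 to 1.78 in attached control, 5.07 to 6.13 in attached GFI1, 2.32 to 3.13 in floating control and 5.91 to 6.88 in floating GFI1 cells, and their part in the results was not tested. Of 8 alveolar type II markers, 2 passed the filter. SFTPC reached at most 14, LAMP3 at most 25 and NKX2-1 at most 36 counts, and the list summed to 0.976 to 1.96 CPM in attached control, 1.97 to 2.9 in attached GFI1, 1.3 to 1.8 in floating control and 3.58 to 4.62 in floating GFI1 cells. Of 5 blood markers 1 passed, CD14, with 73 to 229 counts; CD3E was at 0 in all libraries and PTPRC had at most 1 count, and the list summed to 4.16 to 7.43 CPM in all groups but floating control, where it was 10.2 to 13.8 CPM. Of 5 fibroblast markers 3 passed. COL1A1 had 53 to 256, COL3A1 9 to 46 and PDGFRB 1 to 66 counts, DCN was at 0 in all libraries, and the list summed to 13 to 15.2 CPM in attached control and 7.38 to 10.7 CPM in the other groups. Of 4 endothelial markers 2 passed, CDH5 with 1 to 89 and VWF with 0 to 18 counts. Both were higher with GFI1 in attached cells (4.99 ± 0.40 and 3.39 ± 0.62, log2, SE). PECAM1 had at most 10 counts and KDR at most 1, and the list summed to at most 0.661 CPM in control and 3.55 to 5.51 CPM in GFI1 cells. In bulk RNA, fewer expressing cells and less RNA per cell cannot be told apart.

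Fibrinogen RNA was readily measured in control A549 cells and was close to the floor in GFI1 cells. FGA, the alpha chain (chr4:154583126-154590766), had 652, 629 and 620 counts in the attached control libraries and 3, 6 and 6 in the attached GFI1 libraries. It had 1037, 1016 and 956 counts in floating control and 7, 5 and 7 in floating GFI1 cells. Every GFI1 library thus lay far below every control library, on the contrast that the genes were chosen for. The floating controls lay above the attached controls, and how many of all genes tested did so was not counted. In CPM, FGA averaged 36.1 ± 2.39 (SD, n = 3) in attached control, 0.248 ± 0.07 in attached GFI1, 58.8 ± 4.13 in floating control and 0.336 ± 0.056 in floating GFI1 cells. The fitted difference between GFI1 and control was -7.12 ± 0.15 (log2, SE) in attached and -7.42 ± 0.14 in floating cells. These were the 7th and the 8th lowest values of the 17829 genes tested. Each SE here and below was derived from the F statistic of the test. Where the GFI1 libraries hold so few counts, it can understate the uncertainty of a large difference.

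FGB, the beta chain (chr4:154562956-154571086), followed the same pattern. Its counts were 427, 508 and 469 in attached control, 3, 13 and 7 in attached GFI1, 677, 674 and 599 in floating control and 6, 9 and 17 in floating GFI1 cells. FGG, the gamma chain (chr4:154604134-154612967), had 542, 555 and 512 counts in attached control and 12, 3 and 9 in attached GFI1 cells. In suspension it had 865, 852 and 800 counts in control and 8, 18 and 22 in GFI1 cells. No GFI1 library of either gene reached the lowest control library, on the contrast that the genes were chosen for. The range of the floating controls did not overlap that of the attached controls. How many of all genes tested were separated in this way was not counted. The fitted GFI1 differences of FGB were -6.08 ± 0.19 in attached and -6.06 ± 0.17 in floating cells, and those of FGG were -6.22 ± 0.19 and -5.84 ± 0.16 (log2, SE). As background, at an adjusted p up to 0.05, GFI1 lowered 32.8% and raised 29.5% of all genes tested when cells were attached, and lowered 31.1% and raised 29.3% when they floated. Since the genes were selected on this contrast, nothing is read from their number.

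**Figure D1:**
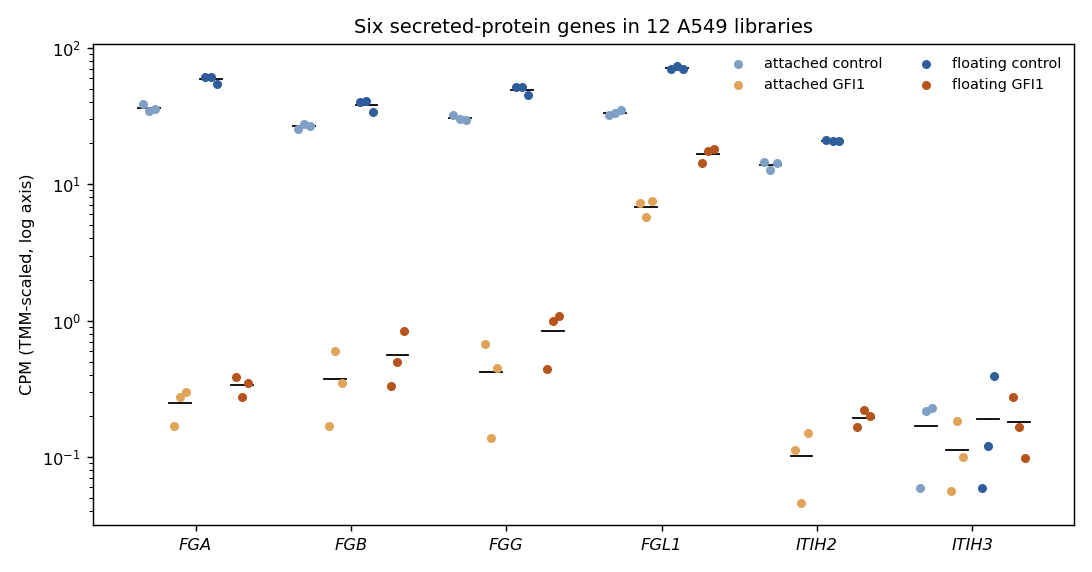
CPM of the 6 genes in each of the 12 libraries, on a log axis, with 1 point per library and a bar at the mean of the 3 libraries of a group. The fibrinogen genes and ITIH2 lie below 1.1 CPM in all GFI1 libraries and above 12 CPM in all control libraries, FGL1 keeps an intermediate level in GFI1 cells, and ITIH3 lies below 0.4 CPM in all 12 libraries.

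The chains were present in nearly equal amounts in control cells. On the scale of counts divided by gene length, FGA made up 33.3% ± 1.5, FGB 35.8% ± 2.23 and FGG 30.9% ± 0.854 (SD, n = 3) of the fibrinogen signal in attached control cells. In floating control cells the shares were 34.9% ± 0.361, 33% ± 0.624 and 32.1% ± 0.289. The shares rest on the gene lengths of the deposited table, which join all exons of a gene (3956 bases for FGA, 2708 for FGB and 3600 for FGG) and may exceed the transcript that is made. Together the chains had 86.8 to 90.6 CPM, here without TMM scaling, in attached control cells and 129 to 146 in floating control cells. The sum was 1.06 to 1.16 CPM in attached GFI1 cells and 1.23 to 2.40 CPM in floating GFI1 cells. A GFI1 library held only 18 to 46 fibrinogen counts in all, so the chain shares there scattered widely, with FGA between 12.5% and 28.5% and FGG between 11.7% and 64.1%. Around the group means of the 6 control libraries, the log2 CPM of FGA and FGG moved together (r = 0.927), while r was 0.42 for FGA with FGB and 0.579 for FGB with FGG. These correlations over 6 libraries share library and scaling and are descriptive.

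**Figure D2:**
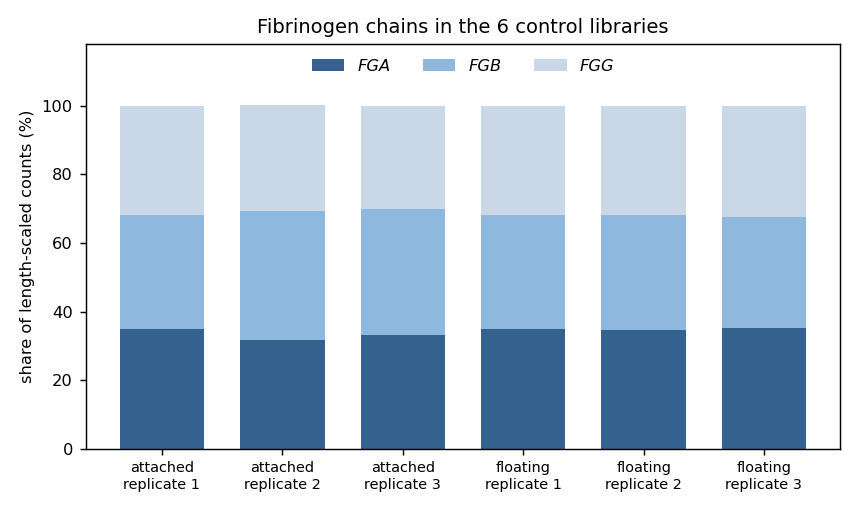
Share of the length-scaled fibrinogen counts (percent) that belongs to FGA, FGB and FGG in each of the 6 control libraries, as stacked bars that add up to the total. FGA takes 31.8% to 35.3%, FGB 32.3% to 37.5% and FGG 30.1% to 32.4%.

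FGL1 stood apart from the fibrinogen chains in how much of it remained. It had 536, 608 and 612 counts in attached control and 129, 125 and 150 in attached GFI1 cells. In suspension it had 1185, 1225 and 1223 counts in control and 262, 320 and 365 in GFI1 cells. The order of the groups was the same for every library, with floating control highest, then attached control, floating GFI1 and attached GFI1 cells. The group means were 71 ± 2.34, 33.3 ± 1.62, 16.7 ± 2.01 and 6.84 ± 0.941 CPM (SD, n = 3). How many of all genes tested kept such an order was not counted, so the order is descriptive only. The GFI1 difference was 4.89-fold in attached and 4.24-fold in floating cells (-2.29 ± 0.09 and -2.08 ± 0.08, log2, SE), the 453rd and 620th lowest of all genes. Per kilobase of gene, FGL1 RNA was close to each fibrinogen chain in attached control cells, at 10.1 CPM per kb against 9.14 for FGA, 9.83 for FGB and 8.49 for FGG. In floating control cells it stood higher, at 21.5 CPM per kb against 13.7 to 14.9. The gene lies on chromosome 8 (17864380 to 17910365), and the antisense and intergenic RNAs that overlap it had at most 3 counts in any library.

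Among the inter-alpha-trypsin inhibitor genes, only ITIH2 of the pair was expressed. ITIH2, the HC2 heavy chain (chr10:7703269-7749520), had 246, 236 and 250 counts in attached control and 2, 1 and 3 in attached GFI1 cells. It had 355, 346 and 365 counts in floating control and 3, 4 and 4 in floating GFI1 cells. The attached GFI1 libraries were all at the floor of 3 counts, and the gene was at least 91.4-fold lower there than in attached control cells. In floating cells the fitted difference was -6.69 ± 0.19 (log2, SE), the 14th lowest of all genes. ITIH3, the HC3 heavy chain (chr3:52794768-52809009), had 1 to 7 counts per library and 36 counts over all 12, and it did not pass the count filter. Its group means lay between 0.114 and 0.192 CPM and no test was made, so its description as a gene expressed by A549 was not borne out by these counts.

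The suspension effect was measured within control cells and within GFI1 cells, and these contrasts were not used to choose the genes. In control cells, all 5 genes that were tested rose in suspension, where 19.6% of all genes tested rose and 20.5% fell. FGL1 rose 2.13-fold (1.09 ± 0.07, log2, SE, edgeR quasi-likelihood test with Benjamini-Hochberg adjusted p = 5.5e-12). FGA rose 1.63-fold (0.70 ± 0.07, adjusted p = 4.9e-09) and FGG 1.61-fold (0.69 ± 0.09, adjusted p = 9.17e-07). ITIH2 rose 1.5-fold (0.58 ± 0.09, adjusted p = 1.26e-05) and FGB 1.43-fold (0.52 ± 0.09, adjusted p = 6.33e-05). For each of these genes the lowest floating control library lay above the highest attached control library in CPM. How many of all genes tested were separated in this way was not counted, so the separation is descriptive only.

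In GFI1 cells, FGL1 and FGG passed the test, and of all genes 15% rose and 16.3% fell. GFI1 itself was at 430 to 704 CPM in floating and 285 to 294 CPM in attached GFI1 cells. Suspension and the level of GFI1 therefore cannot be told apart in this contrast. FGA, FGB and ITIH2 entered this test only through the control libraries, since with the GFI1 groups alone 2 of the 6 genes passed the count filter, so no share of the genes is read here. FGL1 rose 2.46-fold (1.30 ± 0.10, adjusted p = 2.93e-10 by edgeR). FGG rose 2.09-fold from its low level (1.06 ± 0.39, adjusted p = 0.0412). The call for FGG rested on few counts and was lost when only these groups were fitted (1.04, adjusted p = 0.125). It was also lost without replicate 2 (0.61) or replicate 3 (1.15) of attached GFI1 cells, and without replicate 2 (0.93) or replicate 3 (0.82) of floating GFI1 cells. The other estimates were 0.41 ± 0.43 for FGA, 0.54 ± 0.42 for FGB and 0.90 ± 0.57 for ITIH2, with adjusted p of 0.574, 0.359 and 0.335. Their 95% intervals were wide, from -0.48 to 1.29 for FGA, -0.31 to 1.40 for FGB and -0.26 to 2.07 for ITIH2, so a rise of the size seen in control cells was not detectable at this depth.

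**Figure D3:**
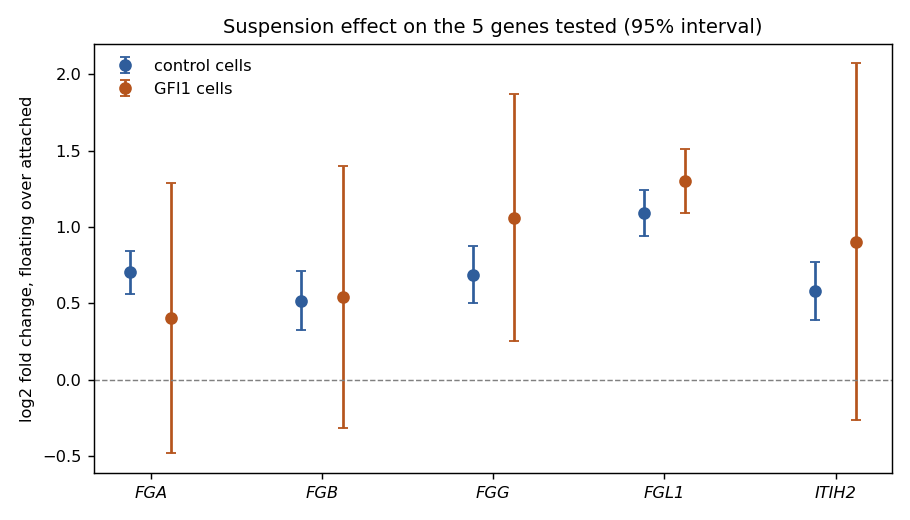
Log2 fold change of floating over attached cells for the 5 genes tested, in control cells and in GFI1 cells, with 95% intervals from the edgeR fit. All control intervals lie above 0, and in GFI1 cells only those of FGG and FGL1 do.

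The difference between the suspension effects was tested with an interaction term, which the difference in GFI1 level also enters. None of the 5 genes passed it by edgeR at an adjusted p of 0.05 or less, 0 had an unadjusted p under 0.05, and DESeq2 gave 0 on either count. Here too, FGA, FGB and ITIH2 entered only through the control libraries. With their few counts in GFI1 cells a difference could hardly have passed, so no share of the genes is read. Of all genes tested, 4.76% passed with a higher and 6.01% with a lower effect in GFI1 cells. FGL1 had the most precise estimate, with an effect 0.21 ± 0.12 higher in GFI1 cells (95% interval -0.05 to 0.47, adjusted p = 0.345). The interval for FGA was -1.25 to 0.66 and that for FGG -0.45 to 1.20. The genes were chosen for the size of the GFI1 effect and not for its difference between attached and floating cells, but these contrasts share the same libraries.

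Of the inter-alpha-trypsin inhibitor pathway, AMBP, ITIH5 and TNFAIP6 were also lower in GFI1 cells. AMBP, which encodes bikunin, fell in attached cells (-2.48 ± 0.26) and in floating ones (-2.59 ± 0.24, log2, SE, adjusted p = 7.11e-09 and 1.05e-09 by edgeR). ITIH5, a further heavy chain of the family, had 50, 60 and 56 counts in attached control and 0, 2 and 0 in attached GFI1 cells. It had 53, 33 and 35 counts in floating control and 1, 0 and 0 in floating GFI1 cells, and was at least 20.7-fold lower with GFI1 in attached and at least 14.8-fold lower in floating cells (adjusted p = 7.42e-11 and 6.14e-10). TNFAIP6 fell when cells were attached (-1.66 ± 0.37, adjusted p = 0.000345) and when they floated (-1.08 ± 0.36, adjusted p = 0.0123, lost without replicate 3 of floating GFI1). ITIH1 and ITIH4 had at most 1 and 8 counts and were not tested. In the wider list of this family and the hyaluronan matrix, GFI1 lowered 8 of 13 and raised 4 in attached cells (median -0.90, log2, against -0.01 over all genes), and lowered 9 and raised 3 in floating cells. VCAN, the hyaluronan-binding proteoglycan versican, had the lowest p among the genes that fell (-4.10 ± 0.05), and the hyaluronan synthase HAS2 among those that rose (0.68 ± 0.10). Suspension of control cells raised 3 and lowered 4 of the 13, with VCAN up (0.46 ± 0.04) and the hyaluronan receptor HMMR down (-0.39 ± 0.05).

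Most acute-phase plasma proteins that could be tested moved in the direction of the fibrinogen genes. Of 17 listed, 8 were tested, and the rest had too few counts. Of these 8, 6 were lower and 0 higher with GFI1, in attached and in floating cells alike, with a median of -1.63 (log2) in each. Over all genes tested, 32.8% were lower in attached and 31.1% in floating cells. Ceruloplasmin (CP), the copper-carrying oxidase of plasma, had 2510, 2897 and 2520 counts in attached control and 146, 190 and 189 in attached GFI1 cells. It reached 11387, 10510 and 10485 counts in floating control and 502, 533 and 541 in floating GFI1 cells. CP thus fell with GFI1 in attached cells (-4.09 ± 0.07) and in floating ones (-4.50 ± 0.06, adjusted p = 6.86e-25 and 8.33e-27), and rose in suspension by 2.07 ± 0.05 in control cells (adjusted p = 4.91e-20). In control cells, suspension raised 4 of the 8 genes and lowered 0. The classical positive acute-phase members SERPINA1 and SERPINA3 had at most 28 and 4 counts. SERPINA1 was tested and did not pass (-0.10 ± 0.40 in attached cells, adjusted p = 0.836).

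The wider set of hepatocyte plasma proteins did not move one way. Of 9 tested, GFI1 raised 3 and lowered 3 when attached, and raised 3 and lowered 4 when floating. The apolipoprotein APOH fell (-2.40 ± 0.12), and the retinol carrier RBP4 rose (2.28 ± 0.10) in attached cells. In control cells, suspension raised 4 of the 9, with APOH at 0.80 ± 0.09, and lowered vitronectin (VTN, -0.56 ± 0.12).

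Liver transcription factors changed in both directions. With GFI1, 6 of 21 rose and 10 fell in attached cells (median -0.33, log2), and 6 rose while 12 fell in floating cells (median -0.30). For this and the other lists, the shares over all genes tested are the background. With GFI1, 29.5% rose and 32.8% fell in attached cells, and 29.3% and 31.1% in floating cells. With suspension of control cells, 19.6% rose and 20.5% fell. FOXA2, a pioneer factor of liver and lung, fell by 0.96 ± 0.06, while FOXA1 rose by 0.86 ± 0.09 in attached cells. HNF4A rose by 0.93 ± 0.15 and the nuclear receptor NR5A2 by 1.40 ± 0.06. Of the C/EBP factors, CEBPB rose (0.65 ± 0.07), CEBPD fell (-0.80 ± 0.08) and CEBPA fell (-0.36 ± 0.10, a call lost when libraries were scaled by their totals alone). Suspension of control cells raised 8 and lowered 3 of the 21, with PPARA up (0.60 ± 0.10) and HNF4A up (0.72 ± 0.16).

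The list of IL-6 and glucocorticoid genes spans receptors, signal carriers, inhibitors and target genes. Its genes were mostly higher in GFI1 cells, opposite to the fibrinogen genes. Of 23 tested, 18 rose and 3 fell in attached cells, and 21 rose and 2 fell in floating cells. The shared receptor chain IL6ST rose from 271 ± 1.54 to 601 ± 15.4 CPM in attached cells (1.15 ± 0.04, adjusted p = 7.22e-18), and IL6R rose by 1.20 ± 0.08. SOCS3, a feedback inhibitor induced by STAT3, rose by 0.80 ± 0.07, and NR3C1, the glucocorticoid receptor, by 0.39 ± 0.04. STAT3 had 182 ± 6.6 and 181 ± 7.36 CPM in attached control and GFI1 cells (-0.01 ± 0.05, adjusted p = 0.901), and rose in floating cells (0.39 ± 0.05). With scaling by library totals alone, STAT3 passed as higher in attached cells (0.14). The kinase JAK1 (-0.21 ± 0.04) and the phosphatase PTPN11 (-0.24 ± 0.04) fell in attached cells, calls that were lost with that scaling. In floating cells JAK1 was called higher with GFI1 (0.12 ± 0.05), a call lost in 3 of 20 alternatives. IL6 itself had 1 to 16 counts and was not tested. In control cells, suspension raised 6 and lowered 4 of the 23, with the NF-κB inhibitor NFKBIA up (0.51 ± 0.05) and the kinase JAK1 down (-0.56 ± 0.05).

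**Figure D4:**
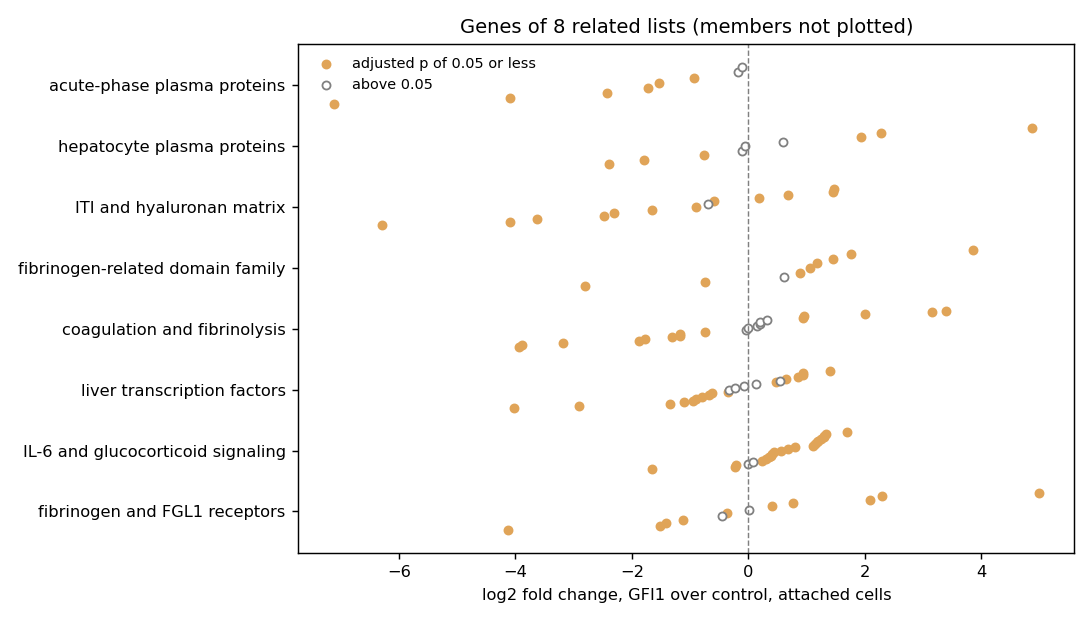
Log2 fold change of GFI1 over control in attached cells for every tested gene of 8 related lists, with the 6 described genes left out. Filled points passed an adjusted p of 0.05 or less and open points did not; of the acute-phase genes 6 of 8 passed as lower, and of the IL-6 and glucocorticoid genes 18 of 23 passed as higher.

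Among coagulation and fibrinolysis genes, which act on fibrinogen and fibrin, GFI1 raised 5 of 20 and lowered 9 in attached cells, and raised 8 and lowered 10 in floating cells. Thrombomodulin (THBD), which turns thrombin towards anticoagulation, rose from 39.1 to 346 CPM in attached cells (3.15 ± 0.06). TFPI2, an inhibitor of plasmin and other serine proteases, fell by 3.89 ± 0.06. Prothrombin (F2) had 6 to 36 counts per library and fell by 1.18 ± 0.35 in attached cells (adjusted p = 0.00484). Tissue factor (F3) did not pass in attached cells (0.19 ± 0.36, adjusted p = 0.67). In floating cells F3 was called higher (1.25 ± 0.32), but it had 100, 257 and 73 counts in the floating GFI1 libraries and the estimate was 0.50, below the threshold, without replicate 2. Of the plasminogen system, PLAU fell (-1.88 ± 0.06), while PLAT was 3.81 and 4.21 CPM in attached control and GFI1 cells (adjusted p = 0.433). In control cells, suspension raised 4 and lowered 5 of the 20, with TFPI up (1.06 ± 0.05) and TFPI2 down (-1.18 ± 0.05).

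Relatives and receptors of the fibrinogen domain were measured as well. Of 9 tested genes with this domain, 6 rose and 2 fell with GFI1 in attached cells, while 2 rose and 1 fell in floating cells, with FIBCD1 up (0.89 ± 0.05) and ANGPT1 at least 3.34-fold lower in attached cells. The angiopoietin-like ANGPTL4, an inhibitor of lipoprotein lipase, rose in suspension by 2.86 ± 0.16 in control cells and by 1.90 ± 0.13 in GFI1 cells, and TNC fell in suspension (-0.68 ± 0.12 in control cells). FGL2 had 2 to 19 counts and did not pass in any contrast. Of 12 receptor genes, GFI1 raised 5 and lowered 5 in attached cells, and raised 4 and lowered 6 in floating cells. The integrin chain ITGB2, part of the leukocyte fibrinogen receptor, rose by 2.30 ± 0.07 and ITGB1 fell by 0.36 ± 0.04. The alpha chains ITGAX and ITGAM of this list did not rise in attached cells (-1.13 ± 0.34 and -0.46 ± 0.33). LAG3, the receptor of FGL1, had 29 to 97 counts and fell by 1.42 ± 0.20 in attached cells (adjusted p = 1.31e-06). Suspension of control cells raised 5 and lowered 0 of the 12, with ITGB2 at 0.81 ± 0.08.

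Genes whose start lies within 500 kb of the start of a described gene were counted next. Around the fibrinogen cluster only PLRG1, a splicing factor 12.5 kb upstream of FGB, was expressed enough to be tested. Its difference was -0.28 ± 0.05 (log2, SE) in attached and in floating GFI1 cells. Of 6 tested neighbours of ITIH2, 3 were lower and 2 higher in attached cells. The extremes were ITIH5, whose start lies 36.3 kb upstream of that of ITIH2, and GATA3, which rose by 2.34 ± 0.12. Of 9 tested neighbours of FGL1, 7 fell and 1 rose in attached cells, and 8 fell and 0 rose in floating cells. Over all genes tested, 32.8% fell and 29.5% rose in attached cells, and 31.1% fell and 29.3% rose in floating cells. The cationic amino acid transporter SLC7A2, 413 kb away, fell by 4.29 ± 0.06, and the microtubule-associated MTUS1, 109 kb away, also fell (-1.97 ± 0.05). An antisense RNA, AC027117.2, starts at the same distance as MTUS1, and since the strandedness of the counting is not given in the sources used here, reads of the pair cannot be told apart. PCM1, 12.5 kb upstream of FGL1, fell by only 0.17 ± 0.04. Of 22 tested neighbours of ITIH3, 6 were higher and 4 lower, from GNL3 at -0.70 to SEMA3G at 1.42.

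**Figure D5:**
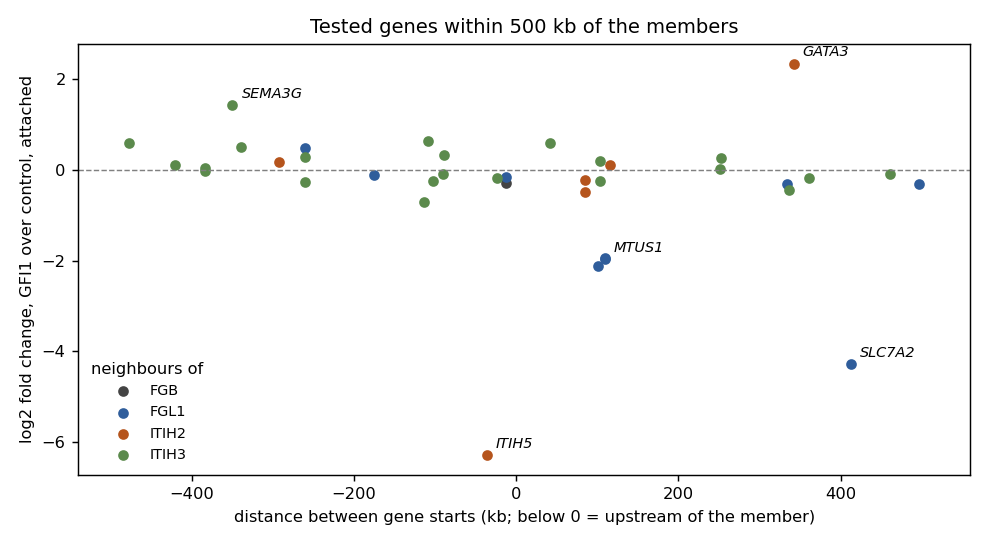
Log2 fold change of GFI1 over control in attached cells for each tested gene whose start lies within 500 kb of the start of FGB, FGL1, ITIH2 or ITIH3, against the distance between the starts in kb (below 0, upstream of the named gene). ITIH5 at -36.3 kb and SLC7A2 at 413 kb are the lowest points and GATA3 the highest, and most other genes lie close to 0.

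The genes most like the mean of FGA, FGB and FGG in log2 CPM over the 12 libraries were sought among 11881 protein-coding genes. They were AGR2, MTUS1, LGMN and CEMIP2 (Pearson r of 0.999 each) and CEACAM6 (0.998). AGR2, a disulfide isomerase of secretory epithelium, and CEACAM6, a surface adhesion protein, were lower with GFI1 in attached cells (-5.98 and -6.40) and higher with suspension of control cells (0.72 and 1.12). Such a likeness was common, as 907 of the candidates had an r of at least 0.95, and the measure is dominated by the difference between control and GFI1 libraries. By Spearman rank, only CEACAM6 of the 5 stayed among the 5 most alike. For FGL1 the most alike were ITPRID2 (0.994), PRR15 (0.992) and EVA1C (0.99), and 215 candidates had an r of at least 0.95. PRR15 was lower with GFI1 in attached cells (-2.66) and higher with suspension of control cells (0.97). For ITIH3 no likeness was computed, since it did not pass the count filter.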

How the data were processed

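Counts of sequenced fragments per gene were deposited by the authors for 12 libraries and used as deposited. Per the study's methods, poly-A RNA was sequenced on an Illumina NovaSeq system, aligned with Hisat2 to GRCh38 and assigned to genes with featureCounts, while the submitters' processing notes name Bowtie2, HTSeq and hg38. The annotation release and strandedness are not given in the sources used here. Groups came from the sample labels.

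In R 4.3.3, edgeR 4.0.16 kept 17829 genes by filterByExpr (minimum count 10, minimum total 15), applied TMM scaling and fitted 1 quasi-likelihood model with 4 group means (biological coefficient of variation 4.86%). Two-sided P values of each contrast were corrected over all genes after Benjamini-Hochberg, with a threshold of 0.05 and no fold minimum. A group with at most 3 counts in each library was at the floor. Log2 CPM used a prior count of 2. Intervals cover 95%. DESeq2 1.42.0, other scalings and filters, a replicate block, and leaving out each library were alternatives. On simulated data the scripts recovered known changes in genes with higher mean counts, for the suspension and interaction contrasts. Changes in genes with few counts, and the GFI1 contrasts, were not simulated.

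The 6 genes, the other lists and the motifs were chosen with earlier results of these data known. Named in the text are the 6 genes, a set list of pathway genes, for each other list the most significant gene that rose and that fell for the GFI1 effect in attached cells and the suspension effect in control cells, the 5 genes most like fibrinogen and 3 most like FGL1, and the extreme neighbours. PCM1, AC027117.1, AC027117.2, ITGAX and ITGAM were named after their values were seen, as were MTUS1 as a neighbour and the cell type markers given by name. Promoters came from RefSeq (GRCh38.p14). Some genes of these lists and 1 of the motifs are not reported here. Amino acid sequences were not used here.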

Additional observations from a re-analysis of the deposited data

How the results depend on the processing

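No paired analysis is implied by the replicate numbers: libraries that share a number did not deviate together from their group means, with correlations between -0.0162 and 0.00889 over the tested genes. With a replicate block, 11054 and 10713 genes were called for the GFI1 effect in attached and floating cells, 7110 and 5546 for suspension in control and GFI1 cells, and 1904 for the interaction, and no call for the described genes changed. The number of described genes that rose with suspension was 1 in control and 1 in GFI1 cells when at least 10 counts were required in every library, because FGL1 alone was then tested, and 1 of 2 tested in GFI1 cells when only those groups were fitted, since FGA, FGB and ITIH2 then missed the count filter. Leaving out 1 library at a time gave 5 in control cells and 1 to 2 in GFI1 cells. The interaction estimates of genes with few counts changed sign in some of these fits, ranging from -0.423 to 0.568 for FGB, from -0.0735 to 0.857 for FGG and from -0.0391 to 0.706 for ITIH2. The GFI1 effects kept their direction in every alternative in which a gene was tested, and since the genes were chosen on them no count of calls was made. Scaling by library totals alone moved the median of all genes to 0.14 for both GFI1 effects and raised the share of calls that were higher, which was 47.4% against 61.5% when attached and 48.5% against 61.4% when floating. With at most 22 counts in any GFI1 library, the fibrinogen genes and ITIH2 give wide intervals there.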
